A study of Sus scrofa with 10 samples.

Results

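Leukocytes leave the blood by rolling on selectins, stopping where chemokines on the vessel wall activate their integrins, and holding to adhesion molecules of the immunoglobulin superfamily before they cross the endothelium. The genes described here encode steps of that sequence: the adhesion molecules VCAM1, ICAM1 and ICAM2, the selectins SELE and SELP, the chemokines CXCL12, CXCL14, CCL2 and CX3CL1, and ACKR3, an atypical receptor that binds and removes CXCL12. Of the 10 symbols sought, 8 were found in the deposited expression table of Ensembl pig genes, which holds 12378 genes with a symbol and 3260 without. No row carried the symbol SELE or CX3CL1, and these 2 genes are not analysed here. Genes are called measured where their symbol was matched. A gene that was not matched may still be among the rows without a symbol.

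The values come from right ventricular biopsies of 10 pigs, 1 bulk RNA library each. Of the pigs, 5 carry the label CTEPH, for chronic thromboembolic pulmonary hypertension, and 5 were Sham controls. In the disease of that name, clots that persist in the lung arteries raise the pressure the right ventricle works against. The CTEPH libraries are named s1, s3, s4, s5 and s9 after the labels, and the Sham libraries s2, s6, s7, s8 and s10. Strain, age, sex, batch, the way CTEPH was induced and the time after surgery are not stated in the labels. The values deposited are log2 values that were brought to nearly the same distribution in each library, with medians of 9.305 to 9.308. Relative sequencing depth, read from low values that could be turned back into whole counts, ran from 0.724 in s9 to 1.57 in s4. Total counts could not be computed, so the depth behind the higher values is unknown. All 9 measured cardiomyocyte markers lay at or above percentile 99.48 of the genes' mean values, as the labelled tissue has it. The table holds no cell types, so for every gene fewer cells of a type and less RNA per cell cannot be told apart.

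VCAM1 was lower in the CTEPH ventricles, and none of the other 7 measured genes passed the test. A gene is called rising or falling at an adjusted p under 0.05 in a limma fit over all genes, with p-values adjusted by Benjamini-Hochberg (BH). By that rule 1 of the 8 measured genes fell and 0 rose, while 4.62% of all genes were called, 1.79% lower and 2.83% higher. At an unadjusted p under 0.05 the count was also 1 of 8, against 20.3% of all genes. The median log2 fold change of the 8 genes was -0.077 and that of all genes -0.032. Changes of the 8 genes ran from -0.89 for VCAM1 to 0.38 for ICAM2, with 3 above 0 and 5 below.

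**Figure D1:**
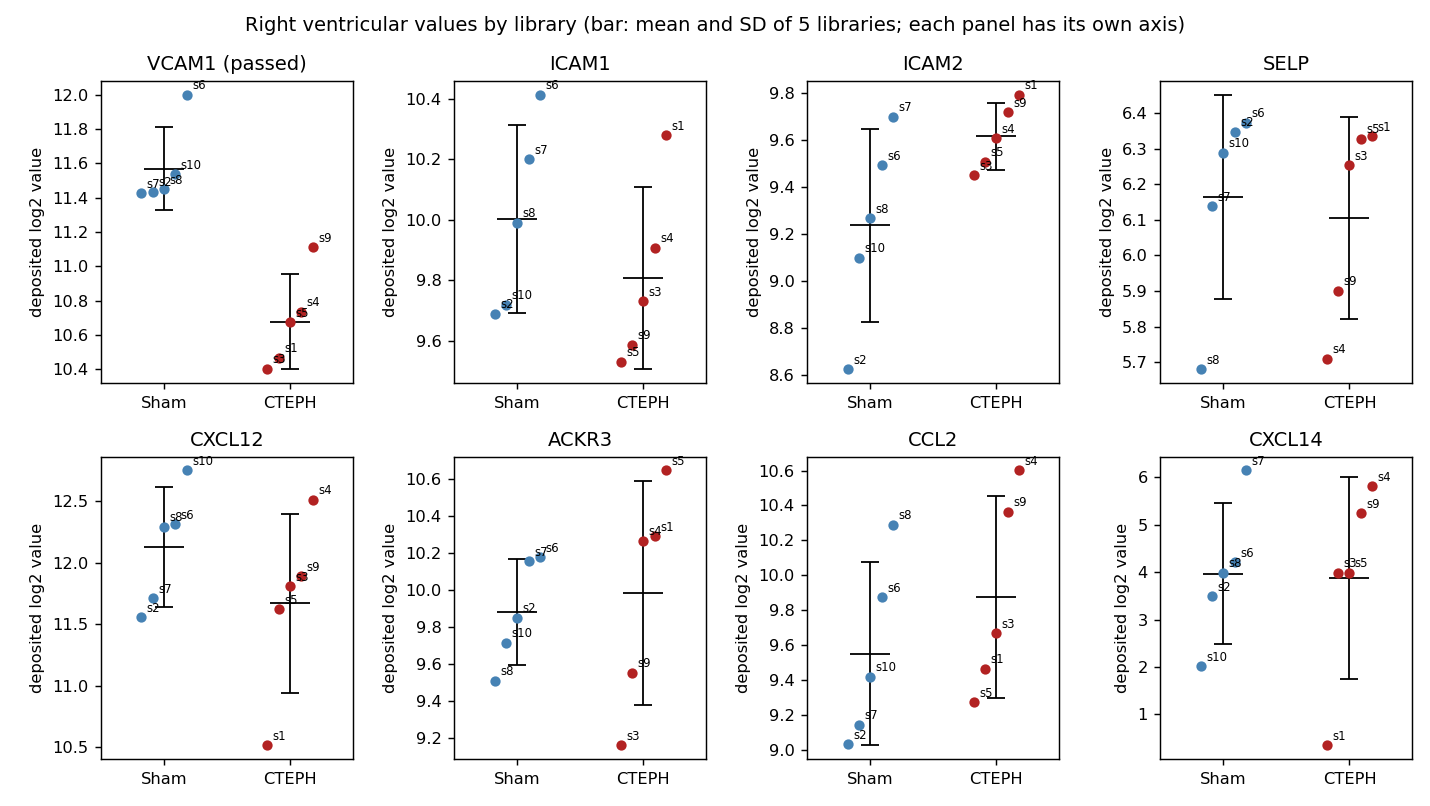
Deposited log2 value (vertical axis, a separate scale in each panel) of the 8 measured genes in 5 Sham (blue) and 5 CTEPH (red) libraries, each point labelled with its library and the black bar giving mean and SD. The VCAM1 panel alone shows 2 groups that do not overlap, with CTEPH at 10.40 to 11.11 and Sham at 11.43 to 12.001.

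VCAM1 encodes the endothelial and stromal adhesion molecule that binds the integrin pair of ITGA4 and ITGB1 on monocytes and lymphocytes. The gene (ENSSSCG00000006862) is on chromosome 4 of Sscrofa11.1, from 117496914 to 117511211. In the CTEPH libraries its log2 value was 10.47 in s1, 10.40 in s3, 10.73 in s4, 10.67 in s5 and 11.11 in s9. In the Sham libraries it was 11.44 in s2, 12.001 in s6, 11.43 in s7, 11.45 in s8 and 11.54 in s10. All 5 CTEPH libraries lay below every Sham library, with s9 nearest to Sham; groups that do not overlap were found for 6.57% of all genes and, with CTEPH lower, for 2.87% (3.7% with CTEPH higher). The CTEPH mean was 10.68 ± 0.28 and the Sham mean 11.57 ± 0.24 (SD, n = 5 each). The log2 fold change was -0.89 ± 0.17 (SE; limma, BH-adjusted p = 0.00869), with a 95% interval of -1.25 to -0.54. On a linear scale the CTEPH level was 0.539 of the Sham level, with an interval of 0.421 to 0.690. By p-value VCAM1 ranked 209 among all genes.

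VCAM1 kept its call in all 10 refits that each left out 1 library. Its log2 fold change ran from -1.001 without CTEPH s9 to -0.79 without Sham s6, the highest Sham library, and the adjusted p from 0.00299 to 0.0243 (limma, BH). The call was lost when the level of endothelial markers was added to the fit as a covariate, as described with those markers.

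ICAM1 and ICAM2 are the other adhesion molecules of the immunoglobulin superfamily in the set, and both bind leukocyte integrins that contain ITGB2. ICAM1, which inflammatory cytokines induce on endothelium, lies on chromosome 2 from 69097136 to 69107722. Its log2 value was 10.28, 9.73, 9.91, 9.53 and 9.59 in CTEPH libraries s1, s3, s4, s5 and s9. In Sham libraries s2, s6, s7, s8 and s10 it was 9.69, 10.41, 10.20, 9.99 and 9.72. The groups overlapped over most of their range, and CTEPH s1 was higher than 4 of the 5 Sham libraries. The difference was -0.20 ± 0.19 with an interval of -0.60 to 0.21 (SE; limma, BH-adjusted p = 0.612).

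ICAM2, which resting endothelium expresses constitutively, lies on chromosome 12 from 14986636 to 14991639. It was at 9.79, 9.45, 9.61, 9.51 and 9.72 in CTEPH s1, s3, s4, s5 and s9. In Sham s2, s6, s7, s8 and s10 it was at 8.62, 9.49, 9.70, 9.27 and 9.10. The CTEPH libraries lay close together (SD 0.14, n = 5) and 2 of them, s1 and s9, were just above the highest Sham library, while Sham was spread more widely (SD 0.41, n = 5) with s2 the lowest. The difference of 0.38 ± 0.19, with an interval of -0.037 to 0.80, did not pass (SE; limma, BH-adjusted p = 0.292). A doubling in CTEPH, a log2 fold change of 1, lies outside the intervals of both ICAM genes.

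SELP encodes P-selectin, which platelets and endothelial cells store in granules and bring to the surface when activated, and on which leukocytes begin to roll. The gene lies on chromosome 4 from 81376804 to 81401240. Its values were low enough to be read back as counts in each library: 38, 36, 44, 43 and 21 in CTEPH s1, s3, s4, s5 and s9. In Sham s2, s6, s7, s8 and s10 the counts were 45, 62, 25, 21 and 31. The log2 values, which take out depth, were 5.71 to 6.33 in CTEPH and 5.68 to 6.37 in Sham, nearly the same range. The difference was -0.060 ± 0.26 with an interval of -0.61 to 0.49 (SE; limma, BH-adjusted p = 0.928). On a linear scale the interval ran from 0.655 to 1.41 of the Sham level.

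CXCL12, the stromal chemokine that holds and draws cells carrying CXCR4, lies on chromosome 14 from 91516383 to 91543857. Its log2 value was 10.52 in CTEPH s1, 11.81 in s3, 12.51 in s4, 11.62 in s5 and 11.89 in s9. In Sham s2, s6, s7, s8 and s10 it was 11.56, 12.31, 11.71, 12.29 and 12.75. CTEPH s1 lay below all other libraries and the remaining 4 CTEPH libraries fell within the Sham range. The difference was -0.45 ± 0.32 (SE; limma, BH-adjusted p = 0.469), and in refits without 1 library it ran from -0.67 without CTEPH s4 to -0.17 without CTEPH s1.

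ACKR3 takes CXCL12 out of the extracellular space without the usual G-protein signalling. The gene lies on chromosome 15 from 136370457 to 136382559. In CTEPH s1, s3, s4, s5 and s9 its log2 value was 10.29, 9.16, 10.27, 10.65 and 9.55, and in Sham s2, s6, s7, s8 and s10 it was 9.85, 10.18, 10.16, 9.51 and 9.71. CTEPH held both the highest library, s5, and the lowest, s3, with an SD of 0.61 against 0.29 in Sham (n = 5 each). The means differed by 0.10 ± 0.26 with an interval of -0.46 to 0.66 (SE; limma, BH-adjusted p = 0.870). CXCR4, the signalling receptor for CXCL12, was at 7.94 in CTEPH and 7.26 in Sham, a difference of 0.68 ± 0.31 that did not pass either (SE; limma, BH-adjusted p = 0.233).

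CCL2, the main chemokine that draws monocytes carrying CCR2 out of the blood, lies on chromosome 12 from 40798109 to 40800013. Its log2 value was 9.47, 9.67, 10.60, 9.27 and 10.37 in CTEPH s1, s3, s4, s5 and s9. In Sham s2, s6, s7, s8 and s10 it was 9.04, 9.87, 9.15, 10.29 and 9.42. The highest library, s4, and the next, s9, were CTEPH, and Sham s8 came close behind. The difference of 0.32 ± 0.30, with an interval of -0.32 to 0.96, did not pass (SE; limma, BH-adjusted p = 0.592). In refits without 1 library it ran from 0.14 to 0.51.

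CXCL14, a chemokine made by epithelial and stromal cells in many resting tissues, was barely detected. The gene lies on chromosome 2 from 137803988 to 137813118. Its recovered counts were 0, 7, 47, 8 and 13 in CTEPH s1, s3, s4, s5 and s9, and 6, 15, 25, 6 and 1 in Sham s2, s6, s7, s8 and s10. A count of 0 in s1 allows up to 3 counts, for counting error only. The log2 values spread from 0.35 to 5.81 in CTEPH and from 2.01 to 6.14 in Sham, and the mean over libraries was at percentile 0.582 of all genes. The log2 difference was -0.093 ± 0.98 with an interval of -2.20 to 2.01 (SE; limma, BH-adjusted p = 0.972), or 0.218 to 4.03 of the Sham level on a linear scale. The interval holds large changes in both directions, so these libraries do not tell whether CXCL14 differs. The sign of the CXCL14 difference turned without CTEPH s1 (0.79) and without Sham s7 (0.45).

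**Figure D2:**
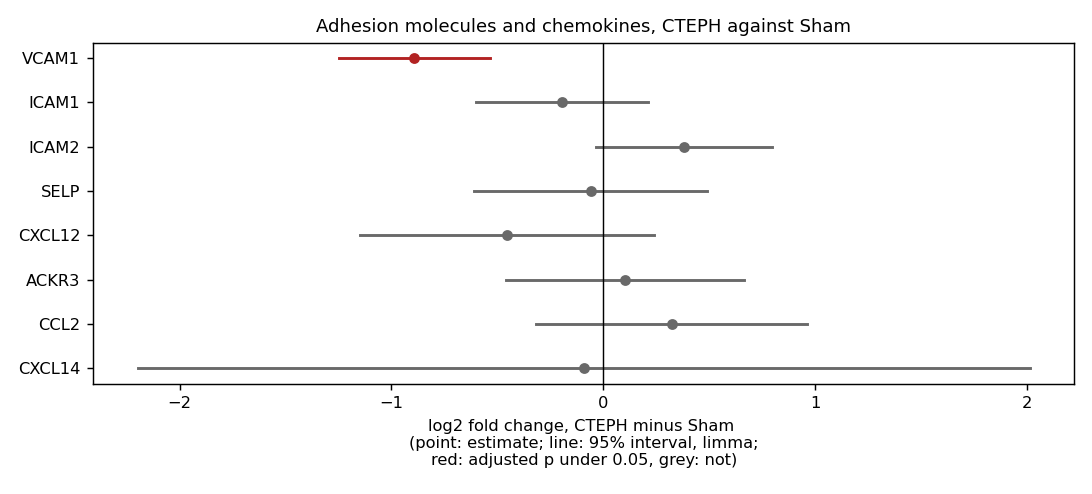
Log2 fold change, CTEPH minus Sham (horizontal axis), of the 8 measured genes, with the limma estimate as a point and its 95% interval as a line. The VCAM1 interval of -1.25 to -0.54 stays below 0, the other 7 intervals cross 0, and that of CXCL14 is the widest at -2.20 to 2.01.

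The endothelial markers listed here were lower in most CTEPH libraries, beside the fall of VCAM1. A level was computed in each library as the mean deviation of 11 measured endothelial markers of 14 listed, none of which is among the 10 genes sought and none of which was at a count of 0 in any library. It was -0.45, -0.24, -0.073, -0.29 and -0.18 in CTEPH s1, s3, s4, s5 and s9, and -0.089, 0.38, 0.18, 0.67 and 0.093 in Sham s2, s6, s7, s8 and s10. Apart from Sham s2, which was just below CTEPH s4, the Sham libraries were the higher ones. The levels differed by -0.50 (two-sided exact permutation p = 0.0159, and 0.127 adjusted over the 8 cell type lists). The fold changes of all 11 markers were below 0, with a median log2 value of -0.41, and 2 of the markers fell: TEK, the angiopoietin receptor (-0.78 ± 0.17), and FLT1, a VEGF receptor (-0.94 ± 0.22; SE; limma, BH-adjusted p = 0.0205 and 0.0296). Both lost their calls in 5 of the 10 refits, without CTEPH s3 or s4 or Sham s6 or s8 and also without Sham s10 for TEK and Sham s7 for FLT1, where the adjusted p reached 0.0576 for TEK and 0.0770 for FLT1. Outside this list, PECAM1, CDH5, ESAM, EMCN and CD34 were at -0.23, -0.35, -0.32, -0.27 and -0.11 on the log2 scale. These endothelial genes were named after their values were seen. MCAM, described below, was higher at 0.89, and none of them passed (limma).

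With the endothelial level as a covariate, the VCAM1 difference was -0.72 ± 0.26 (SE; limma, BH-adjusted p = 0.316 and unadjusted p = 0.0181). In that fit 116 genes were called in place of 723. For VCAM1 minus the endothelial level the CTEPH mean was -0.20 ± 0.24 and the Sham mean 0.20 ± 0.33 (SD, n = 5 each), and the groups overlapped: CTEPH s9 at 0.17 was above Sham s7 at 0.12 and Sham s8 at -0.34. CTEPH s1, s4 and s5, at -0.21, -0.32 and -0.16, were also above Sham s8, and only CTEPH s3 at -0.48 lay below every Sham library. After this subtraction groups without overlap and with CTEPH lower were found for only 0.141% of all genes. The level subtracted is itself lower in CTEPH, so the overlap is no separate result about VCAM1. The part of the endothelial markers in the VCAM1 difference cannot be told apart from the group, because the covariate itself differs between the groups.

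The same subtraction raises the CTEPH values of every gene relative to Sham. ICAM2 minus the endothelial level was 0.26 to 0.82 in CTEPH and -0.83 to 0.091 in Sham, so that the groups did not overlap, as was the case with CTEPH higher for 14.2% of all genes. The covariate fit is not this fixed subtraction, because it estimates a slope for each gene. In it the ICAM2 difference was 0.64 ± 0.30 and that of CCL2 1.33 ± 0.31 (SE; limma, BH-adjusted p = 0.454 and 0.0887), neither of which passed. Their unadjusted p was 0.0538 and 0.000976 (limma), and 11.2% of all genes were under 0.05 in that fit. SELP and ACKR3 moved down there, to -0.53 ± 0.37 and -0.11 ± 0.42 (SE; limma, BH-adjusted p = 0.651 and 0.960). CCL2 minus the level was -0.15 to 0.96 in CTEPH and -0.75 to -0.091 in Sham, which overlapped only in that CTEPH s5 was below Sham s8.

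**Figure D3:**
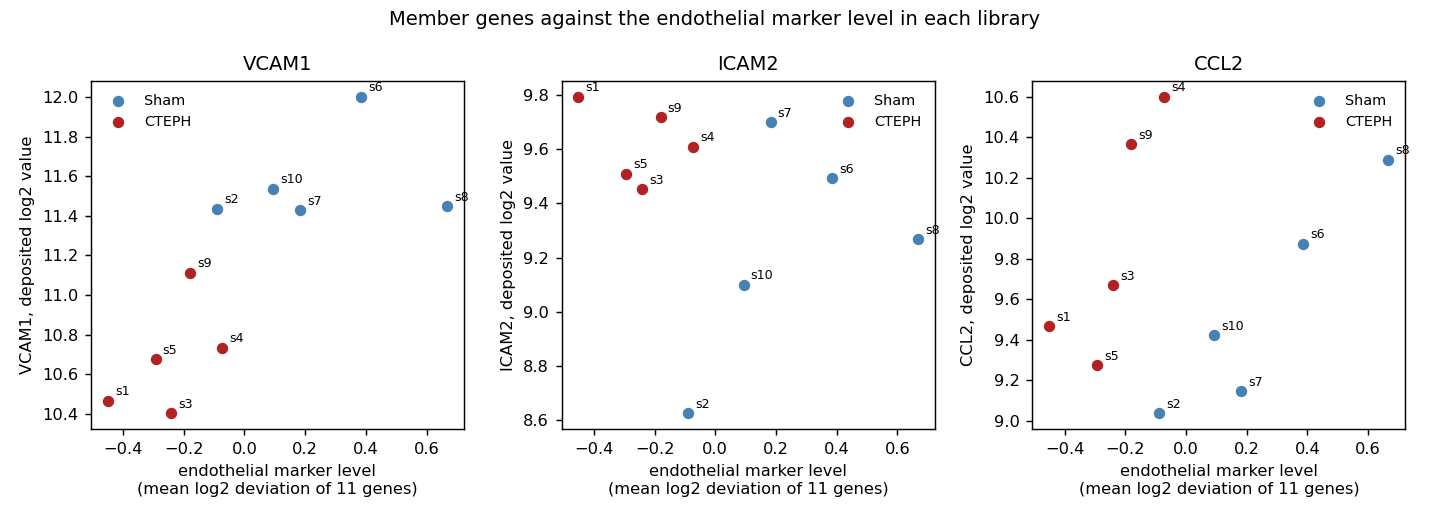
Deposited log2 value of VCAM1, ICAM2 and CCL2 (vertical axes) against the endothelial marker level (horizontal axis, mean log2 deviation of 11 genes) in 5 Sham (blue) and 5 CTEPH (red) libraries, labelled by library. CTEPH libraries have levels of -0.45 to -0.073 and Sham libraries of -0.089 to 0.67; VCAM1 is lower in CTEPH, while ICAM2 in CTEPH, at 9.45 to 9.79, overlaps the upper Sham values.

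Of 13 macrophage and monocyte markers 1 rose and 0 fell, and 4 had an unadjusted p under 0.05, against 4.62% and 20.3% of all genes. Fold changes were above 0 for 11 and below 0 for 2, with a median of 0.38 on the log2 scale. Of those under 0.05, MSR1, AIF1 (0.67 ± 0.24) and CD163 (0.91 ± 0.32) were higher and CD68 (-0.50 ± 0.20) was lower (SE, limma, unadjusted p = 0.0139, 0.0143 and 0.0256 for AIF1, CD163 and CD68). The list's level was -0.20 to 0.73 in CTEPH and -0.62 to 0.27 in Sham (two-sided exact permutation p = 0.183, and 0.487 adjusted over the 8 lists). The riser was MSR1, the macrophage scavenger receptor, at 7.75 to 7.91 in CTEPH and 5.68 to 6.75 in Sham, a log2 fold change of 1.62 ± 0.23 (SE; limma, BH-adjusted p = 0.00164). With the endothelial covariate it was 1.39 and not called (limma, BH-adjusted p = 0.153). Among 11 T and NK lymphocyte markers and 3 B and plasma cell markers 0 passed, and 0 had an unadjusted p under 0.05 (limma). Their levels overlapped, at -0.16 to 0.43 against -0.41 to 0.57 for T and NK cells and -1.02 to 1.28 against -0.66 to 0.65 for B cells. Of 7 neutrophil markers only CSF3R was matched by symbol, with a difference of 1.18 ± 0.53 that did not pass (SE; limma, BH-adjusted p = 0.230).

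Stromal markers, which mark further sources of VCAM1 and CXCL12, had levels of -0.36 to 0.66 in CTEPH against -0.42 to 0.15 in Sham for 12 fibroblast genes. For 10 mural cell genes they were -0.58 to 0.48 against -0.22 to 0.11 (two-sided exact permutation p = 0.516 and 0.746, and 0.688 and 0.802 adjusted over the 8 lists). Of the fibroblast genes 0 passed (limma) and 4 were under 0.05 without adjustment. GSN (-0.75 ± 0.20) and PDGFRA (-0.46 ± 0.20) were lower (SE; limma, BH-adjusted p = 0.0509 and 0.206). PI16 (1.26 ± 0.55) and DPT (0.43 ± 0.20) were higher (SE; limma, BH-adjusted p = 0.214 and 0.239). In GSN all CTEPH libraries lay below every Sham library, as in 2.87% of all genes. Of the mural genes the smooth muscle calponin CNN1 rose (1.98 ± 0.47; SE; limma, BH-adjusted p = 0.0294), a call lost in 6 of the 10 refits (without CTEPH s3 or s5 or Sham s2, s6, s8 or s10), where its adjusted p reached 0.0723. Fold changes were above 0 for 5 mural genes and below 0 for the other 5, and 4 had an unadjusted p under 0.05. Of these, CNN1 and KCNJ8 (0.43 ± 0.18) were higher and PDGFRB (-0.54 ± 0.19) and RGS5 (-0.61 ± 0.26) lower (SE, limma). The level of the 9 cardiomyocyte markers was -0.17 to 0.17 in CTEPH and -0.30 to 0.14 in Sham (two-sided exact permutation p = 0.802, also when adjusted over the 8 lists), and 1 of them rose, the light chain MYL2 (0.99 ± 0.21; SE; limma, BH-adjusted p = 0.0173, and 0.0509 without CTEPH s4). Fold changes were above 0 for 4 of the 9 and below 0 for 5, with a median of -0.0375 on the log2 scale. CKM (-0.62 ± 0.21) and MYBPC3 (-0.54 ± 0.23) were lower without passing (SE, limma, BH-adjusted p = 0.118 and 0.214). With the endothelial covariate CNN1 and MYL2 were at 2.34 and 0.91 and not called (limma, BH-adjusted p = 0.252 and 0.316). None of the markers in these lists was at a count of 0 in any library, and their part in the results for the adhesion and chemokine genes was not tested.

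The partners of the adhesion molecules on leukocytes changed in 1 member. Of 13 measured integrins, selectin ligands and related genes 1 rose and 0 fell, and the median was 0.26 on the log2 scale. Beside the counts in this and the following lists, 4.62% of all genes were called and 20.3% had an unadjusted p under 0.05 (limma). CD44, a hyaluronan receptor that also carries selectin ligand sugars and is found on stromal cells as well as leukocytes, was at 12.96, 11.31, 11.43, 11.07 and 10.65 in CTEPH s1, s3, s4, s5 and s9. In Sham s2, s6, s7, s8 and s10 it was at 9.52, 9.62, 10.20, 9.98 and 9.45. The groups did not overlap, as was the case with CTEPH higher for 3.7% of all genes, and s1 stood highest. CD44 rose by 1.73 ± 0.34 on the log2 scale (SE; limma, BH-adjusted p = 0.0133) and kept its call in all 10 refits without 1 library. The integrin gene ITGAD (-0.65 ± 0.28) and CD24, a surface glycoprotein that P-selectin can bind (-1.15 ± 0.57), did not pass (SE; limma, BH-adjusted p = 0.211 and 0.286). The subunits of the VCAM1 receptor, named for that role after their values were seen, were at 0.26 ± 0.38 for ITGA4 and 0.18 ± 0.22 for ITGB1 (SE; limma, BH-adjusted p = 0.756 and 0.695).

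Of 16 other adhesion and junction genes of the vessel wall 0 passed (limma) and 5 were under 0.05 without adjustment, with 12 of the 16 fold changes below 0 and a median of -0.18. The 3 with the smallest p were MCAM, an adhesion molecule of endothelial and mural cells (0.89 ± 0.27), the junction molecule JAM2 (-0.61 ± 0.24) and ALCAM (0.71 ± 0.28; SE; limma, BH-adjusted p = 0.0823, 0.170 and 0.178). Also under 0.05 without adjustment were CDH5 (-0.35 ± 0.15) and F11R (-0.48 ± 0.21), both lower (SE, limma, unadjusted p = 0.0346 and 0.0431). They were named after their values were seen. In this list the values therefore lay on both sides of 0, most of them below, without a call.

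Other chemokines did not pass. Only 14 of the 37 listed were matched by symbol. Of these 0 passed (limma) and 1 was under 0.05 without adjustment, with 11 of 14 fold changes below 0 and a median of -0.25. That gene was CCL21, a chemokine of lymphatic vessels that draws cells carrying CCR7, at -0.75 ± 0.33 (SE; limma, BH-adjusted p = 0.218). CCL4 was at 0.74 ± 0.36 and the eotaxin gene CCL26 at -1.32 ± 0.83 (SE; limma, BH-adjusted p = 0.266 and 0.408). Of 13 measured chemokine receptors 0 passed (limma) and 2 were under 0.05 without adjustment; the median was 0.47 on the log2 scale. The 2 were CXCR4 and ACKR2, an atypical receptor that takes up inflammatory CC chemokines such as CCL2. ACKR2 was at 8.82 to 11.54 in CTEPH and 8.14 to 9.20 in Sham, a difference of 1.26 ± 0.40 that did not pass (SE; limma, BH-adjusted p = 0.0936). CX3CR1, the receptor for CX3CL1, whose symbol was not matched, was at 0.67 ± 0.38 (SE; limma, BH-adjusted p = 0.357).

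Among the genes that modify adhesion molecules and their ligands, TPST2 fell. It encodes a tyrosine sulfotransferase, an enzyme type that sulfates the P-selectin ligand and chemokine receptors. It was the 1 falling gene of 19 measured genes of shedding, clipping and ligand synthesis, with 0 rising. Its log2 value was 10.45, 9.51, 9.61, 9.13 and 10.29 in CTEPH s1, s3, s4, s5 and s9, and 10.62, 11.22, 10.90, 10.87 and 10.87 in Sham s2, s6, s7, s8 and s10. The groups did not overlap, as was the case with CTEPH lower for 2.87% of all genes, and CTEPH s1 was closest to Sham s2. The log2 fold change was -1.09 ± 0.23 (SE; limma, BH-adjusted p = 0.0188), and the call was lost without CTEPH s4 or Sham s6, at an adjusted p of up to 0.0528. The sialyltransferase ST3GAL6 (0.48 ± 0.17) and the galactosyltransferase B4GALT1 (0.36 ± 0.15) did not pass (SE; limma, BH-adjusted p = 0.140 and 0.192).

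NF-kB is the transcription factor through which TNF and IL1 induce VCAM1, ICAM1, SELE and CCL2, and GATA factors are known to act on the VCAM1 promoter. Of 34 measured genes of this induction 2 fell and 0 rose, and 9 had an unadjusted p under 0.05, against 4.62% and 20.3% of all genes. The median log2 fold change was -0.095. IKBKB, the kinase that releases NF-kB from its inhibitor, was at 11.94, 11.40, 11.26, 11.11 and 11.49 in CTEPH s1, s3, s4, s5 and s9, and at 12.34, 12.95, 12.58, 12.42 and 11.85 in Sham s2, s6, s7, s8 and s10. CTEPH s1 was above Sham s10 and the groups otherwise did not overlap. IKBKB fell by 0.99 ± 0.20 on the log2 scale (SE; limma, BH-adjusted p = 0.0162) and kept its call in all 10 refits without 1 library.

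GATA2, a transcription factor of endothelial and blood cells, was at 8.44 to 9.28 in CTEPH and 9.17 to 10.18 in Sham. It fell by 0.91 ± 0.21 (SE; limma, BH-adjusted p = 0.0293), a call lost in 5 of the 10 refits, without CTEPH s3 or s5 or Sham s6, s7 or s8, at an adjusted p of up to 0.0742. IL13RA1, a receptor chain for IL4 and IL13, was at -0.47 ± 0.15 and did not pass (SE; limma, BH-adjusted p = 0.0888). IL4R, another receptor chain for IL4, named after its value was seen, went the other way at 0.77 ± 0.24. It did not pass either (SE, limma, BH-adjusted p = 0.0960). The NF-kB subunits, named after their values were seen, were at 0.38 for NFKB1, 0.17 for NFKB2, 0.41 for REL, 0.59 for RELB and -0.100 for RELA on the log2 scale. None passed, and NFKB1, REL and RELB had an unadjusted p of 0.0107, 0.0376 and 0.0418 (limma). TNF itself was at -0.43 ± 0.63 (SE; limma, BH-adjusted p = 0.751). With the endothelial level as a covariate the log2 fold changes of CD44, IKBKB and TPST2 were about as large, at 1.52, -0.91 and -1.07, but their calls were lost in that fit, in which fewer genes passed overall (limma, BH-adjusted p = 0.322, 0.315 and 0.311). The GATA2 difference was smaller there, at -0.39 (limma, BH-adjusted p = 0.671).

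**Figure D4:**
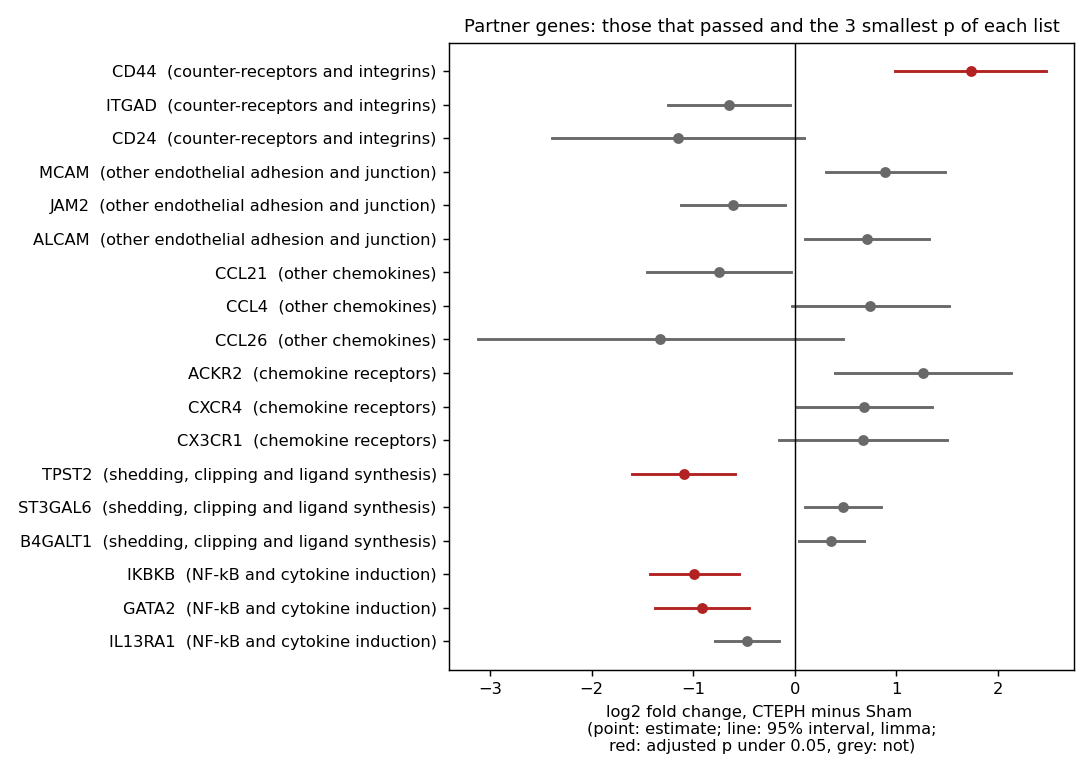
Log2 fold change, CTEPH minus Sham (horizontal axis), of the partner genes that passed and the 3 with the smallest p in each of 6 lists, with the limma estimate as a point and its 95% interval as a line. CD44 (1.73) lies to the right among the called genes in red, while TPST2 (-1.09), IKBKB (-0.99) and GATA2 (-0.91) lie to the left.

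The 5 genes with a symbol whose values were most like those of VCAM1 over the 10 libraries were SELENBP1, IL2RA, KCND3, RNF207 and ITIH5. Their Pearson r with VCAM1 was 0.976, 0.951, 0.948, 0.944 and 0.940, a description in which the difference between the groups is part of the likeness, as are the shared libraries and normalization. SELENBP1, a selenium-binding protein gene, fell by 1.47 ± 0.22 on the log2 scale. IL2RA, a chain of the interleukin 2 receptor, was at 6.08 to 6.98 in CTEPH and 7.61 to 8.09 in Sham and fell by 1.46 ± 0.23. KCND3, of the transient outward potassium current, and RNF207, a cardiac ubiquitin ligase that acts on potassium channels, fell by 1.995 ± 0.36 and 1.11 ± 0.17 (SE; limma, BH-adjusted p = 0.00202, 0.00268, 0.00741 and 0.00268 for these 4 genes). ITIH5, which binds hyaluronan, was at -0.42 ± 0.12 and did not pass (SE; limma, BH-adjusted p = 0.0692). In each of the 5 genes all CTEPH libraries lay below every Sham library, as in 2.87% of all genes. The choice of genes like VCAM1, whose own groups do not overlap, favours such falls, so they are no separate result.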

How the data were processed

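The authors deposited 1 table of log2 values for 10 libraries. Per the submitters' processing notes the tools were featureCounts, edgeR 3.36.0, limma 3.50.0, cutadapt 1.15, FastQC 0.11.5 and bcl2fastq 2.18.12, and the build was Sscrofa11.1. Aligner, annotation, strand setting and low-value filter were not given in the sources used here. PolyA RNA is the labelled molecule, and the kit is one for stranded total RNA. The values have the form of quantile-normalized log2(2k + 1) for a whole count k: the values below 9.48, which are 52.8% of the table, were read back with an error of at most 5.0e-10 (tolerance 1e-06), so the original count is k or 2k. Normalization hides a change shared by most genes, and the 1 added compresses low genes. Symbols were matched for 12378 genes; coordinates are those of the RefSeq gene table of Sscrofa11.1, by symbol. The comparison used limma 3.58.1 under R 4.3.3 (intensity trend, no covariate, two-sided, Benjamini-Hochberg (BH) over all genes, no filter), after a test on simulated data. The limma p-values set each difference against the spread between pigs, which the fit moderates towards that of genes of like intensity. No test compared a list with other genes; the levels of the 8 cell type lists were compared between groups by exact permutation. From the lists 1 gene was left out and is not reported here. Beside the genes sought, the naming rule takes from each of 14 other lists every called gene and the 3 smallest p, and the 5 genes most like VCAM1. Of the 8 cell type lists the text prints the called genes, CSF3R and some of the 3 smallest p. CD68, RGS5, IL4R, DPT, PECAM1, CDH5, ESAM, EMCN, CD34 and F11R were named after their values were seen. Genes, lists and tests were chosen with earlier results of these data known. Alternatives were trend, library weights, a filter, a robust prior, median centring, the endothelial covariate, voom on recovered counts and leaving out each library.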

Additional observations from a re-analysis of the deposited data

Results flagged for a closer look

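Of the 16 sets of 5 values formed by the 8 measured genes in the 2 groups, 1 held a library far from the others by Dixon's test, which chance gives in about 1 in 20 sets. It was VCAM1 in Sham, where s6 at 12.001 lay above the other 4 libraries at 11.43 to 11.54. Without s6 the VCAM1 log2 fold change was -0.79 ± 0.16 (SE; adjusted p = 0.0226, limma with Benjamini-Hochberg).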

How the results depend on the processing

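VCAM1 was the 1 called gene of the set, with 1 lower and 0 higher, in all 10 refits without 1 library and in 5 of the 6 other settings in which it was measured; with the endothelial level as a covariate 0 were called. In voom on recovered counts only SELP and CXCL14 of the set could be fitted. Over all genes, calls numbered 723 (443 higher, 280 lower). They numbered 1269 (722 and 547) with library weights, 116 (108 and 8) with the endothelial covariate and 308 (213 and 95) with voom, where fewer genes were tested, and 273 were higher when the lowest 25% of genes were left out. Without 1 library they ran from 401 to 961, with 270 to 570 higher and 117 to 392 lower. The cause of these shifts was not tested. Differences that had not passed changed sign for CXCL14 with library weights (0.39), the endothelial covariate (1.70) and voom (0.060), and with the covariate for CXCL12 (0.28) and ACKR3 (-0.11). Without 1 library the ranges were -0.58 to 0.79 for CXCL14, -0.18 to 0.039 for SELP and -0.064 to 0.31 for ACKR3. Counts as low as 0 for CXCL14 and 21 for SELP limit the precision of these 2 genes. No paired analysis was possible because each replicate number occurs once.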
